A study of Mus musculus with 4 samples.

Results

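Ventricular myocytes of the fetal mouse heart were split by their own transcripts of Nppa, the gene of atrial natriuretic peptide, and the remaining genes were compared between the cells richest in it and the cells without it. The cells came from the BB/PF regions (bundle branches and Purkinje fibers) of both ventricles, 1 library each. A barcode counted as a ventricular myocyte with at least 500 genes, a mean natural log of 1 plus unique molecular identifiers (UMIs) per 10000 of at least 1.5 over Tnnt2, Myh6, Ttn, Actn2 and Ryr2, more UMIs of the ventricular light chain Myl2 than of the atrial light chain Myl7, and no UMI of Cacna2d2, a calcium channel subunit of conduction cells. Of 10462 barcodes in both libraries, 7042 passed. Within each library, the 10% with the most Nppa per 10000 UMIs formed the Nppa-high side (422 left and 283 right cells), and all cells at or below the median formed the Nppa-low side (2856 left and 1876 right cells). The median was 0, so the low side holds every gated cell without an Nppa UMI, 67.7% of the left and 66.5% of the right cells. Both sides together are 5437 of the 22805 barcodes of the series. The last cell inside the high side had 11.096 Nppa UMIs per 10000 on the left, where the first one outside had 11.092, and on the right these were 14.05 and 14.02. The cells were thus chosen by their own Nppa level, and Nppa itself is left out of all results.

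All libraries were made from hearts of wild-type CD1 mice at embryonic day 16.5, with no treatment, by the 10x Genomics 3' method. Besides those of the ventricles, the series holds a library of the SAN region and one of the AVN/His region. Neither the number of hearts behind a library nor whether the left and the right library come from separate animals is given in the sources used here, so p-values measure the spread between 2 libraries only, which may be technical. The left and right libraries shared 41 barcodes, 17 of them among the gated cells.

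In the fetal ventricle the muscle forms an inner, spongy layer of trabeculae and an outer, compact wall. Trabecular myocytes make natriuretic peptides, express a fast-conduction connexin and contribute to the Purkinje fibers, while the compact wall grows by division and expresses the repressor Hey2. Nppa is a classical marker of the trabecular layer, and the high side was labelled the trabecular side and the low side the compact side for that reason.

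UMIs were summed per library and side, and each level is given as CPM, the UMIs of a gene per 1000000 UMIs of that side without Nppa. Such a level does not tell more cells with a transcript from more transcripts per cell. The Nppa-high cells had more UMIs per cell, with medians of 9867 against 8230 (left) and 11361 against 8888.5 (right). Mitochondrial transcripts made up a median of 14.9% and 14.3% of UMIs in left and 17.7% and 17.8% in right high and low cells. With edgeR's quasi-likelihood test, with the library as a block and the adjusted p under 0.05, 420 of 11539 tested genes (3.64%) were higher in Nppa-high cells and 385 (3.34%) were lower. In both libraries 416 of the higher and all 385 of the lower genes moved in the same direction, as did 7124 of all 11539 tested genes. A call from 2 pairs favors genes that move alike in both, so the agreement of the called genes is partly built in. The changes were mostly small, with a median size of 0.49 on the log2 scale among the higher and 0.48 among the lower genes, and 100 of the higher and 47 of the lower genes differed at least 2-fold. When the AVN/His library stood in for the left library, 169 genes were higher and 109 lower, and when it stood in for the right library, 140 and 94. Values given below as without the left or without the right library come from these fits. Both fits hold the AVN/His library, so a gene with like ratios in both ventricles can fail in each. The high side of that library began at 1.72 Nppa UMIs per 10000, against 11.096 and 14.05 in the ventricles. Its gated cells were also more mixed. UMIs of at least 3 markers of 1 other cell type were found in 10.9% of its high and 7.67% of its low cells. These shares were 0.711% and 1.37% on the left and 2.12% and 3.09% on the right. Fibroblast markers summed to 373 and 371 CPM there, against 47.7 and 93.2 CPM (left) and 31.2 and 115 CPM (right). The effect of this on the fits was not tested. List counts from these fits stand beside 169 and 140 higher and 109 and 94 lower genes of 11588 and 11909 tested. Summing after every cell was thinned to 4000 UMIs left 135 higher and 88 lower genes. With all 3 libraries in the fit 2.61% of genes were higher and 1.91% lower, and with DESeq2 on the 2 ventricles 0.889% and 0.319%.

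**Figure D1:**
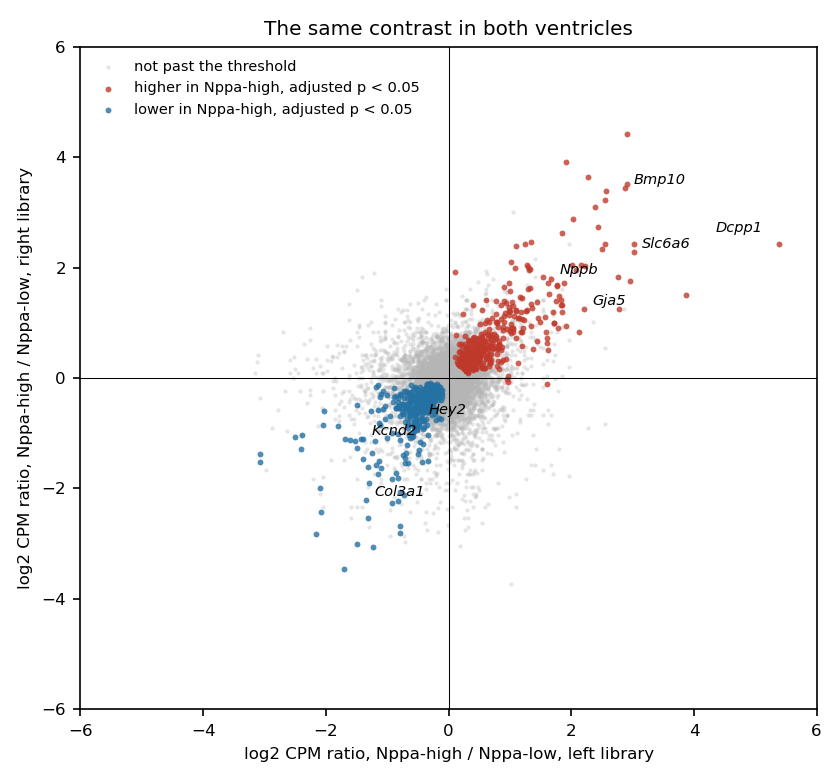
Log2 ratio of CPM, Nppa-high over Nppa-low, in the left library (x axis) and the right library (y axis), 1 point per gene, with genes that passed edgeR's test in color. The 11470 of 11539 tested genes with both ratios within 6 log2 units of 0 are drawn. The 385 lower genes lie below 0 on both axes, as 416 of the 420 higher genes lie on the same side of 0 on both. A call favors such genes, and 7124 of all 11539 tested genes had the same direction in both libraries.

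Natriuretic peptide genes were examined first. Nppb, which encodes brain natriuretic peptide, lies on the plus strand of chromosome 4 from 147985788 to 147987205 in GRCm38, next to Nppa. Its level was 213 CPM in low, 341 CPM in the cells between the sides and 681 CPM in high cells of the left library, and 291, 558 and 1014 CPM in the right. The high side stood above the low side in both ventricles, and the cells that belong to neither side lay between them. The difference was 1.73 on the log2 scale (SE 0.06, adjusted p = 5.02e-26 with edgeR), the lowest p among the 11539 genes tested. Corin, the membrane protease that activates the atrial peptide, had 47.8 and 62.4 CPM in left low and high cells and 46.7 and 74.9 CPM in right ones (log2 fold change 0.51, SE 0.09, adjusted p = 9.3e-05 with edgeR). The other 4 tested genes of the system did not pass. The convertase Furin had a log2 fold change of 0.05, the guanylyl cyclase receptors Npr1 and Npr2 had 0.08 and 0.06, and the clearance receptor Npr3 had -1.32 at 3 left and 2 right UMIs in high cells (adjusted p = 0.207 with edgeR). Nppc and the peptidase gene Mme fell under the filter on low counts.

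Among genes known to respond to stretch or load, 8 of 15 were higher and none was lower, with a median log2 fold change of 0.32 against -0.03 over all tested genes. Without the left library 6 were higher (median 0.21) and without the right 5 (median 0.23). Ankrd1, a titin-binding ankyrin repeat protein, had 461 and 1168 CPM in left low and high cells and 810 and 1555 CPM in right ones, higher in each library (log2 fold change 1.13, SE 0.06, adjusted p = 1.39e-18 with edgeR). Acta1, the skeletal muscle actin of the fetal heart, had 22.9 and 84.0 CPM on the left and 68.8 and 227 CPM on the right. Its log2 fold change was 1.78 (SE 0.08), and right low cells held less than left high cells. Beside these and Nppb, which the list also holds, the actin-binding repeat protein Xirp2 (2.58), the matricellular Ctgf (1.16), the calcineurin inhibitor Rcan1 (0.35), the muscle LIM protein Csrp3 (0.32) and the small heat shock protein Cryab (0.22) were higher. Of these, Rcan1 (0.32 and 0.31) and Cryab (0.15 and 0.12) did not pass without the left or without the right library, and Csrp3 did not without the right (0.23). Fhl1 and Xirp1 had log2 fold changes of 0.04 and 0.01.

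The promoters of 3 of these genes, of Bmp10, a growth factor gene that was also higher, and of Hey2, which was lower, are shown with the motifs found in them. Gja5 and Irx3, both higher and searched as well, held none of the motifs and are not shown, so the sequences printed are those with hits. For Nppb, Ankrd1 and Hey2 the RefSeq start lies inside the gene span of another annotation, GENCODE M21, which also gave the Nppb span above. The whole Ankrd1 sequence lies inside its span there, which ends at 36120099 on chromosome 19. Each sequence holds the 250 bases before the RefSeq start of the gene on build GRCm38.p6, 5' to 3' along the gene, and capitals mark the motifs searched, which were AGATAA (the GATA factor motif), GGAATG (the M-CAT motif of TEAD factors), AGGTGT (a T-box motif) and the CArG box of serum response factor, on both strands and with no 2 of them overlapping in these sequences.
Nppb, chr4:147985650-147985899, plus strand: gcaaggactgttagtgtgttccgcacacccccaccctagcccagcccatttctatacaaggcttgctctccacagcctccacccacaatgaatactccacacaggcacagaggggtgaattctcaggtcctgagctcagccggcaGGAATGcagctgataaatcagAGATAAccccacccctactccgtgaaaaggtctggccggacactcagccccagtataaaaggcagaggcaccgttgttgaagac
Acta1, chr8:123894776-123895025, minus strand: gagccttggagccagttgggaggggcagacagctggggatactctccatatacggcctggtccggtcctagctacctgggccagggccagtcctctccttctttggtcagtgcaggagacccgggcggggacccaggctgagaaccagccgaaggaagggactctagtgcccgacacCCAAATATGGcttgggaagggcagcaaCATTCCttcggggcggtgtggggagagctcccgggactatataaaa
Ankrd1, chr19:36119845-36120094, minus strand: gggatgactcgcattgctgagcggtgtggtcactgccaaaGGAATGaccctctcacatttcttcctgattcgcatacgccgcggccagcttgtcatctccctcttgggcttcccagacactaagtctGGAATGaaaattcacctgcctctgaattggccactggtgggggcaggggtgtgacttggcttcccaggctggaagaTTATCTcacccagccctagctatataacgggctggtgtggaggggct
Bmp10, chr6:87428744-87428993, plus strand: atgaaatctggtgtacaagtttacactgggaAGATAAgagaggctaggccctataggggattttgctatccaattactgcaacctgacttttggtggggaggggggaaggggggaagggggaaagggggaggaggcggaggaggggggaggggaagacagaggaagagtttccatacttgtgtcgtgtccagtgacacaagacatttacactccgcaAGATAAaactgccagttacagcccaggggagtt
Hey2, chr10:30842784-30843033, minus strand: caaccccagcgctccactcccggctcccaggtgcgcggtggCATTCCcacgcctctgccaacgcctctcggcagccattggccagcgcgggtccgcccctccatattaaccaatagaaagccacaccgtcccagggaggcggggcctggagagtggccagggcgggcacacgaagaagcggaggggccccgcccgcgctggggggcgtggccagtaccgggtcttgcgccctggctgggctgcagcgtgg
In Nppb, the M-CAT motif starts 105 bases and the GATA motif 84 bases before the start. Acta1 held a CArG box from 73 and an M-CAT motif from 46 bases, and Ankrd1 held 2 M-CAT motifs, from 210 and 123 bases, and a GATA motif from 47 bases. Bmp10 held 2 GATA motifs, from 219 and 33 bases, and no M-CAT motif, and Hey2 held an M-CAT motif from 209 bases and none of the others. Among 32851 promoters of this length in the RefSeq table, 12.6% held the M-CAT letters, 9.99% the GATA letters, 11.8% the T-box letters and 1.47% a CArG box. Among 400 promoters of genes that were higher in Nppa-high cells the shares were 16%, 6.25%, 7.25% and 3.75%, among 357 of lower genes 11.5%, 6.16%, 7.84% and 1.68%, and among 11225 of all tested genes 10.6%, 5.48%, 9.2% and 1.21%. A match is a description of these letters and no evidence of binding.

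The label of the sides was then set beside markers. The lists were chosen with earlier results of these data known, so they give no independent check. Of 14 trabecular genes, 13 passed the filter on low counts. Of these, 11 were higher and none lower in Nppa-high cells, with a median log2 fold change of 1.17, against 3.64% higher among all genes tested. The higher ones numbered 9 without the left library, 8 without the right and 9 with DESeq2. Over all genes tested, the higher ones went from 420 to 169, 140 and 103 in the same fits. Bmp10, a growth factor of the trabecular layer, had 1.71, 5.25 and 12.6 CPM in left low, between and high cells and 1.75, 10.3 and 19.03 CPM in right ones (log2 fold change 3.13, SE 0.23, adjusted p = 8.3e-14 with edgeR). Irx3, a transcription factor of fast-conducting tissue, had 5.04 and 18.3 CPM in left low and high cells and 2.73 and 16.8 CPM in right ones (2.12, SE 0.20, adjusted p = 5.91e-11 with edgeR). Its relatives Irx5 (2.82), Irx1 (1.17) and Irx2 (0.63) were higher too, while Irx4, the ventricular member of this family, had -0.24 and did not pass (adjusted p = 0.166 with edgeR). Gja5, the fast-conduction connexin 40, had 6.35 and 29.2 CPM on the left but 3.55 and 8.42 CPM on the right, where 27 UMIs were counted in high cells (log2 fold change 1.93, SE 0.18).

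The transcription factor Etv1 (0.85), the cofactor Cited1 (0.29), the potassium channel subunit Kcne1 (0.39) and the guidance ligand Slit2 (1.30, adjusted p = 0.0296 with edgeR) were higher as well. Of these, Slit2, Cited1 and Kcne1 no longer passed when the AVN/His library stood in for either ventricle, with log2 fold changes of 0.97, 0.24 and 0.14 without the left and 0.74, 0.17 and 0.20 without the right library. Sema3a, a secreted guidance cue, had a log2 fold change of 1.10 and did not pass (adjusted p = 0.21 with edgeR) but passed without the left library (adjusted p = 0.0291). Tbx5 had -0.01. Of 17 Purkinje genes, 8 of 12 tested were higher and none lower, but 7 of the 12 are also trabecular genes of the first list, the count was 5 without the left and 4 without the right library, and the gate had removed 76 left and 56 right cells with a Cacna2d2 UMI. Scn10a, a sodium channel of conduction tissue (2.45), and Id2, a helix-loop-helix inhibitor of that tissue (1.19), were the higher members that the trabecular list does not hold. Id2 did not pass without the left (0.32) or the right library (0.17), and Scn10a fell under the filter in both fits. The Purkinje markers Cntn2, Hcn4, Tbx3 and Cpne5 fell under the filter on low counts. Leaving the Cacna2d2 condition out raised the Purkinje count from 8 to 11 and the trabecular count from 11 to 12. Over all genes, the higher ones rose from 420 to 578 of 11603 tested in the same fit.

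**Figure D2:**
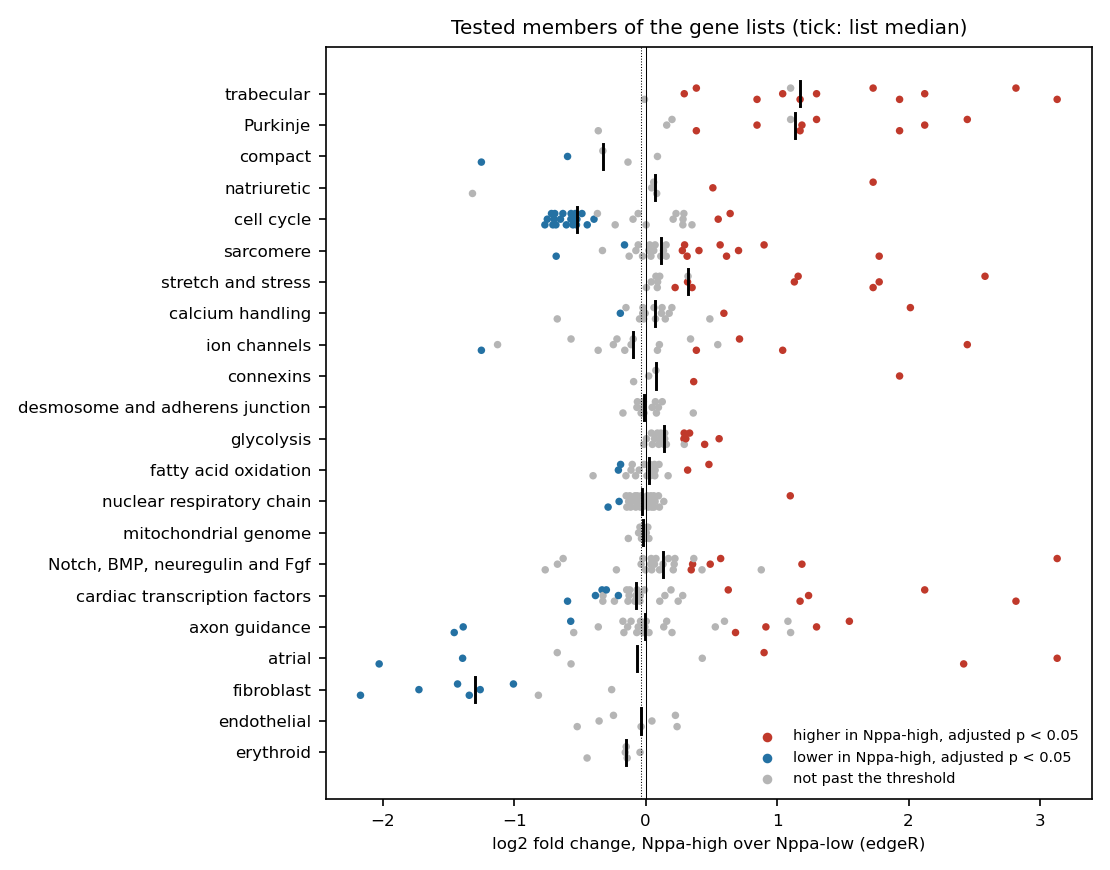
Log2 fold change, Nppa-high over Nppa-low, of every tested member of 22 gene lists; each point is 1 gene, color gives the result of edgeR's test, the black tick is the median of the list and the dotted line the median of all tested genes. The trabecular and Purkinje lists lie to the right (medians 1.17 and 1.14) and the cell cycle and fibroblast lists to the left (medians -0.52 and -1.30).

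Markers of the compact wall were less uniform. Hey2, on chromosome 10 from 30832359 to 30842801, had 85.7, 79.0 and 62.6 CPM in left low, between and high cells and 115, 90.8 and 69.6 CPM in right ones. High cells had less in both ventricles but still most of the level of the low cells (log2 fold change -0.59, SE 0.08, adjusted p = 1.13e-06 with edgeR). Kcnd2, a channel of the transient outward potassium current, had 8.71 and 3.32 CPM in left low and high cells and 11.4 and 5.30 CPM on the right (-1.25, SE 0.23), from 14 and 17 UMIs in high cells. It did not pass without the left (-0.52) or without the right library (-0.65), with the AVN/His library in its place. The remaining members were Mycn (-0.33, adjusted p = 0.286 with edgeR), Tbx20 (-0.13, adjusted p = 0.259) and Kcnip2 (0.09, adjusted p = 0.802). Of the 5 compact genes, 2 were thus lower, and 1 passed in each of the fits with the AVN/His library.

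Levels were also read across finer ranks of Nppa, in 5 bins of about equal size among the cells with an Nppa UMI. Nppb went from 213 CPM in cells without Nppa through 304, 284, 381 and 513 to 747 CPM in the left library, and from 291 through 461, 555, 596 and 808 to 1059 CPM in the right, with 1 step down on the left. Slc6a6, the taurine transporter, went from 8.58 to 85.4 CPM on the left and from 13.4 to 69.2 CPM on the right, reaching 31.5 and 48.6 CPM in the third bin. Hey2 had 85.7, 77.4, 84.9, 74.7, 80.0 and 54.0 CPM on the left and 115, 94.8, 100, 76.4, 82.9 and 68.3 CPM on the right, lowest in the top bin of each library but with 2 steps up on the way, and on the left most of the drop lay in the top bin. Gja5 climbed to 33.6 CPM in the top left bin, whereas on the right its highest level, 12.4 CPM, lay in the third bin and the top bin had 7.74 CPM. Over all genes, the level of the cells between the sides lay between those of both sides for 387 of the 420 higher genes (92.1%) on the left and 364 (86.7%) on the right. This held for 278 (72.2%) and 271 (70.4%) of the 385 lower genes, and for 40.1% and 40.5% of the genes that did not pass.

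**Figure D3:**
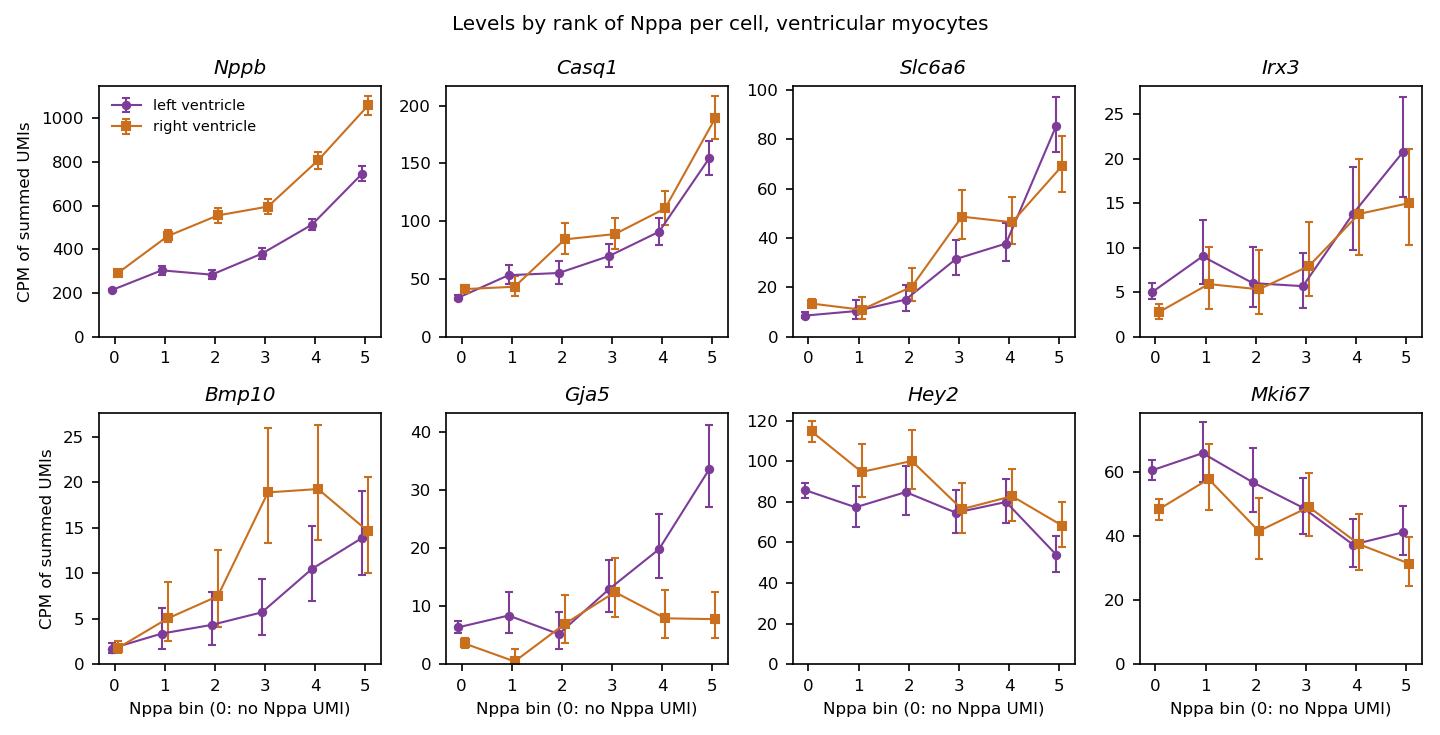
CPM of 8 genes in the left (circles) and right (squares) library, in cells without an Nppa UMI (0) and in 5 bins of rising Nppa (1 to 5); bars are exact 95% Poisson intervals, which cover counting error only. Nppb rises to 747 and 1059 CPM in the top bins and Hey2 is lowest there, at 54.0 and 68.3 CPM, while Gja5 parts between the ventricles.

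Shares of cells show how widely the genes were found within each side. An Nppb UMI was present in 85.1% of left high cells (exact 95% binomial interval 81.3 to 88.3) and 56.0% of left low cells (54.1 to 57.8), and in 86.6% and 57.8% of right ones. After thinning to 4000 UMIs per cell the shares were 68.7% and 38.8% on the left and 73.5% and 42.1% on the right. Of 73 macrophage-like barcodes of the right library (median 6706 UMIs), none had an Nppb UMI, which gives an upper limit of 4.93%, and 1 of 20 had one in the left library (median 5906.5 UMIs). Nppb in low cells stood above that background. Irx3 was found in 15.6% of left high and 3.99% of left low cells, and in 6.64% and 2.07% after thinning, against 1.37% of the right macrophage-like barcodes; on the right it was 15.2% and 2.35%, and 5.30% and 0.959% after thinning. The interval of that macrophage-like share, whose upper end is 7.398%, holds all low shares and both thinned high ones, so these cannot be told from background, and most high cells had no Irx3 UMI. Bmp10 was found in 8.06% of left and 11.0% of right high cells, against 1.09% and 0.959% of low ones. After thinning its high shares were 4.50% and 4.95%. Gja5 was found in 17.8% of left and 7.77% of right high cells, and in 10.4% and 3.18% after thinning. Most high cells thus had no UMI of either gene. Hey2 was found in 42.4% of left high and 48.2% of left low cells, and in 47.0% and 58.2% of right ones, and after thinning in 23.9% and 28.1%, and 20.8% and 34.9%, against 1.37% of the right macrophage-like barcodes. The intervals of the thinned left shares overlap (19.9 to 28.3 against 26.4 to 29.8), and those of the right do not (16.3 to 26.1 against 32.8 to 37.1).

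Several minor isoforms of contractile genes were higher in Nppa-high cells. Of 25 sarcomere genes, 9 were higher and 2 lower, with a median of 0.12. Myl4, the atrial and fetal essential light chain, had 1180 and 2380 CPM in left low and high cells and 1836 and 3220 CPM in right ones (log2 fold change 0.90, SE 0.05, adjusted p = 3.46e-17 with edgeR). Myl1, the essential light chain of fast skeletal muscle, had 6.22 and 35.3 CPM on the left and 5.76 and 29.0 CPM on the right (2.42, SE 0.14). Myl9, the regulatory light chain of smooth muscle, had 616 and 1028 CPM on the left and 764 and 1236 CPM on the right (0.71, SE 0.05). Smooth muscle actin Acta2 (0.57), cardiac actin Actc1 (0.28), the tropomyosins Tpm1 (0.32) and Tpm2 (0.62), desmin (Des, 0.30) and the small muscle protein Smpx (0.41) were higher. The slow skeletal troponins Tnnt1 (-0.68) and Tnni1 (-0.16) were lower, but Tnni1 did not pass without the left (-0.16) or the right library (-0.16) and Tnnt1 did not without the right (-0.32). Among the higher ones, Actc1 (0.18 and 0.15) and Des (0.21 and 0.19) did not pass without the left or the right library, nor Tpm1 without the right (0.18). Myh7, the main ventricular myosin, had a log2 fold change of 0.06 and Tnni3, the adult troponin I, of -0.07, and neither passed. Myl7, which the gate used, had 339 and 872 CPM on the left and 222 and 389 CPM on the right, given as a description.

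Both calsequestrins, which store calcium in the sarcoplasmic reticulum, were higher. Casq1, the calsequestrin of fast skeletal muscle, on chromosome 1 from 172209894 to 172219868, had 33.9, 61.7 and 136 CPM in left low, between and high cells and 41.2, 74.1 and 170 CPM in right ones. This was the second lowest p of all genes (log2 fold change 2.01, SE 0.08, adjusted p = 2.39e-24 with edgeR). The cardiac calsequestrin Casq2 had 423 and 621 CPM on the left and 423 and 668 CPM on the right (0.60, SE 0.06). Phospholamban, Pln, was lower by a small amount, with 3534 and 3110 CPM on the left and 3470 and 3064 CPM on the right (-0.19, adjusted p = 0.0123 with edgeR), and did not pass without the left (-0.09) or the right library (-0.11). Of 18 calcium handling genes, 15 did not pass, among them the sodium-calcium exchanger Slc8a1 (-0.15).

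Conduction and coupling genes beyond those above were few. Gja1, the connexin 43 of working muscle, had 296 and 397 CPM in left low and high cells and 379 and 476 CPM in right ones, higher in both (log2 fold change 0.37, SE 0.06, adjusted p = 1.1e-05 with edgeR). Of 17 tested ion channel genes, 4 were higher, among them Scn10a, Kcne1 and the background potassium channel Kcnk3, and Kcnd2 was lower. Without the left library 1 was higher and without the right 2, and none was lower in either fit. Kcnk3 had 22.3 and 48.6 CPM on the left but 36.5 and 44.3 CPM on the right (0.71), and did not pass without the left library (0.18). None of 13 genes of desmosomes and adherens junctions passed with edgeR or with DESeq2, 1 had an unadjusted p under 0.05, and their log2 fold changes ran from -0.17 for the alpha-catenin Ctnna3 to 0.36.

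Genes of the cell cycle were mostly lower in Nppa-high cells. Of 33 genes, all tested, 20 were lower and 2 higher in Nppa-high cells, with a median log2 fold change of -0.52. The lower genes numbered 10 without the left library (median -0.26), 12 without the right (-0.32), 10 when sums were taken after thinning and 7 with DESeq2. Over all genes tested, the lower ones went from 385 to 109, 94, 88 and 37 in the same fits. Hmgb2, a chromatin protein abundant in dividing cells, had 612, 587 and 372 CPM in left low, between and high cells and 502, 424 and 289 CPM in right ones (-0.77, SE 0.06, adjusted p = 1.58e-13 with edgeR). The centromere genes Cenpa (-0.66) and Cenpf (-0.69), the mitotic regulators Birc5 (-0.70), Cdc20 (-0.75) and Ube2c (-0.57), and Mki67 (-0.60) were lower. Mki67 did not pass without the left (-0.26) or the right library (-0.41). Cyclin D2, Ccnd2, went the other way, with 149 and 205 CPM on the left and 92.1 and 150 CPM on the right (0.55, SE 0.07, adjusted p = 1.07e-07 with edgeR), as did cyclin E1, Ccne1 (0.64). Without the right library neither passed (0.29 and 0.69). In all, 24 of the 33 genes had a log2 fold change below 0 and 9 above. Those above held Mcm2 (0.29), Mcm3 (0.28), Mcm4 (0.21), Mcm5 (0.23), Mcm6 (0.28) and cyclin D1, Ccnd1 (0.35), none of which passed. Pcna (-0.10) and Mcm7 (-0.06) were near 0.

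Cells with UMIs of at least 2 of Mki67, Top2a, Ccnb1, Cdk1, Cenpf and Ube2c made up 29.4% of left high cells (exact 95% binomial interval 25.1 to 34.0) and 35.7% of left low cells (33.9 to 37.5), and 27.6% and 28.3% of right ones. After thinning to 4000 UMIs these shares were 21.8% and 29.2% on the left and 17.7% and 22.1% on the right, and on the right the intervals overlap (13.4 to 22.6 against 20.2 to 24.0). The shares were highest in the cells between the sides, 39.0% and 32.9% as counted. When the cells with 2 or more of these genes were left out, a choice made on members of the list, 1 of its 27 genes still tested was lower and 1 higher, the median was -0.06, and Hmgb2, Cenpf, Ube2c and Cdc20 no longer passed.

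Energy metabolism showed small changes. Of 20 genes of glycolysis and lactate handling, 6 were higher and none lower: the mutase Pgam1 (0.45), the lactate carrier Slc16a3 (0.56), lactate dehydrogenase Ldha (0.33), phosphofructokinase Pfkl (0.31), pyruvate kinase Pkm (0.29) and hexokinase Hk2 (0.29). Pgam1 had 426 and 582 CPM in left low and high cells and 363 and 503 CPM in right ones (SE 0.06, adjusted p = 1.17e-07 with edgeR), and alone of the 6 kept its call without the right library. Without the left library Ldha (0.18), Pkm (0.12) and Hk2 (0.30) did not pass, and without the right Ldha (0.14), Pkm (0.15), Hk2 (0.29), Pfkl (0.26) and Slc16a3 (0.24) did not. In the AVN/His library itself the log2 ratio was -0.02 for Ldha and -0.03 for Pkm. Ckmt2, the mitochondrial creatine kinase of muscle, had 34.1 and 74.7 CPM on the left and 21.8 and 46.5 CPM on the right (1.10, SE 0.09, adjusted p = 5.23e-12 with edgeR). It was the 1 higher gene of the 30 on the nuclear respiratory chain list, and as a creatine kinase it is no subunit of that chain. Cox8b (-0.29) and Ndufa1 (-0.20) were lower, and both were lost without the left (-0.21 and -0.16) or the right library (-0.15 and -0.11). None of the 13 genes of the mitochondrial genome passed with edgeR or with DESeq2, 1 had an unadjusted p under 0.05, with log2 fold changes from -0.13 to 0.02. Of 21 fatty acid oxidation genes, 2 were higher and 2 lower; lipoprotein lipase, Lpl, had 389 and 451 CPM on the left and 462 and 629 CPM on the right (0.32) and did not pass without the right library (0.23). Myoglobin, Mb, was lower, with 1080 and 856 CPM on the left and 1725 and 1132 CPM on the right (-0.48, SE 0.06, adjusted p = 2.41e-08 with edgeR; -0.23 and not passing without the right library).

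Slc6a6, on chromosome 6 from 91684053 to 91759066, was the gene with the fourth lowest p. It had 8.58, 20.8 and 69.7 CPM in left low, between and high cells and 13.4, 27.7 and 65.2 CPM in right ones, a 6.30-fold difference (log2 fold change 2.65, SE 0.12, adjusted p = 2.4e-21 with edgeR). An Slc6a6 UMI was present in 36.5% of left high and 6.34% of left low cells, and in 33.6% and 7.41% of right ones. It was also present in 36 of 73 macrophage-like barcodes of the right library (49.3%) and in 5 of 20 of the left (25%). The source of Slc6a6 in those barcodes was not tested. Mest, an imprinted hydrolase gene, had 228 and 450 CPM on the left and 202 and 446 CPM on the right (1.04, SE 0.06). Gpx3, a secreted glutathione peroxidase, had 120 and 228 CPM on the left and 218 and 562 CPM on the right (1.16, SE 0.07). Among the lower genes of lowest p, Ppp1r1b, an inhibitor of protein phosphatase 1, had 90.4 and 45.1 CPM on the left and 59.6 and 28.1 CPM on the right (-1.05, SE 0.10, adjusted p = 3.06e-11 with edgeR). The histone genes H2afv (-0.53) and H1f0 (-0.68) and the nuclear RNA Malat1 (-0.42) were lower as well, H1f0 not without the left library (-0.29) and Malat1 not without the right (-0.25).

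Of 27 tested genes of Notch, BMP, neuregulin, Fgf and related signaling, 6 were higher and none lower: Bmp10, Id2, Tgfb2 (0.57), the growth factor Bmp7 (0.35), the mannose 6-phosphate receptor Igf2r (0.36) and the binding protein Igfbp5 (0.49). The count was 4 without the left library, 2 without the right and 3 with DESeq2. Bmp7 (0.32 and 0.25) and Igfbp5 (0.41 and 0.41) did not pass without the left or the right library, nor Igf2r without the right (0.26), which leaves Bmp10 and Tgfb2 called in both. Tgfb2 had 19.5 and 30.4 CPM in left low and high cells and 25.6 and 36.8 CPM in right ones (SE 0.12, adjusted p = 6.1e-04 with edgeR). Of 28 cardiac transcription factors, 5 were higher (4 Iroquois genes and Hand1, at 1.24) and 5 lower. Hand1 did not pass without the left (0.36) or the right library (0.71). Its log2 ratio was 1.27 on the left, 1.24 on the right and -0.33 in the AVN/His library. The lower ones were Hey2, Mef2c (-0.38), Gata6 (-0.30), Prox1 (-0.33) and the coactivator Ppargc1a (-0.21). Mef2c had 110 and 83.3 CPM on the left and 120 and 95.8 CPM on the right, and did not pass without the left (-0.23) or the right library (-0.29). Gata6 (-0.20 and -0.26), Prox1 (-0.19 and -0.15) and Ppargc1a (-0.19 and -0.14) likewise did not pass in either fit, so that Hey2 was the 1 lower factor in both. Of 27 axon guidance genes, Sema3c (1.55), Slit2, Robo1 (0.91), which encodes a Slit receptor, and netrin 1, Ntn1, were higher. Ntn1 had 55.7 and 94.4 CPM on the left and 33.8 and 50.8 CPM on the right (0.68, SE 0.09, adjusted p = 1.39e-07 with edgeR). Sema5a (-1.46), the ephrin receptor Epha3 (-1.39) and the ephrin Efna5 (-0.57) were lower, but of these Sema5a alone passed without the left (-1.10) and without the right library (-1.01). Efna5 (-0.42 and -0.25), Epha3 (-0.45 and -0.60), Sema3c (0.78 and 0.65) and Robo1 (0.42 and 0.47) did not pass in either fit. The stress and immediate early list had 2 of 15 lower, Fos (-0.83) and Egr1 (-0.80), and none higher. None was lower with DESeq2, without the left or the right library, with cells of other types or cycling cells left out, or after thinning.

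Markers of other cells moved with the sides in part, and their part in the results was not tested. The 8 fibroblast markers summed to 93.2 CPM in left low and 47.7 CPM in left high cells, and to 115 and 31.2 CPM in right ones; 6 of 8 were lower, led by Tcf21 (-2.17) and Col3a1 (-1.72), against 3 without the left and 1 without the right library. With the cells holding at least 3 markers of another type or over 1% hemoglobin left out, 1 of the 6 fibroblast markers still tested was lower and their median was 0.13, with the trabecular list at 11 higher and the cell cycle list at 19 lower and 3 higher. Postn, a matrix gene of fibroblasts, had 27.9 and 12.6 CPM on the left and 37.7 and 11.2 CPM on the right (-1.43), but 65.7 and 92.6 CPM in the AVN/His library. It did not pass without the left (-0.15) or the right library (-0.03), and Col3a1 and Col1a2 did not pass without the right (-0.40 and -0.35). Tcf21 had 1 left and 2 right UMIs in high cells. That gene did not pass without the left (-0.07) or the right library (-0.43) or with DESeq2. The 10 atrial markers summed to 1203 and 2437 CPM on the left and 1864 and 3286 CPM on the right, most of which was Myl4. Of 8 tested atrial markers, Myl4, Myl1 and Bmp10 were higher and 2 were lower, among them the atrial factor Nr2f2 (-2.03), which did not pass without the left (-0.76) or the right library (-0.08). Sln, the sarcolipin of atrial muscle, was near 0 in every sum, at 1.26 and 0.474 CPM on the left and 0.815 and 0.936 CPM on the right. The 8 endothelial markers summed to 19.9 and 13.8 CPM on the left and 53.5 and 63.6 CPM on the right, and none of 7 tested passed with edgeR or with DESeq2 or had an unadjusted p under 0.05, but 3 were higher without the left library. The erythroid markers summed to 3808 and 2689 CPM on the left and to 6251 and 7306 CPM on the right, in opposite directions. Of the epicardial markers Krt19 was higher (2.02), from 2.24 to 9.49 CPM on the left and from 1.92 to 7.49 CPM on the right. The mural list had Rgs5 lower (-0.98), but not without the left library (-0.85), and of the 2 macrophage markers and 1 neural marker tested none passed.

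The AVN/His region library, which the rule did not use, gave 2572 myocytes by the same gate, 258 of them on its high side and 2020 on its low side. Its high side started at 1.72 Nppa UMIs per 10000, against 11.096 and 14.05 in the ventricle libraries. Of the 420 genes higher in the ventricle libraries, 344 (81.9%) were higher there, against 45.5% of all tested genes. Of the 385 lower genes, 323 (83.9%) were lower there, against 54.5% of all tested genes. The median log2 ratio was 0.21 for the higher and -0.18 for the lower genes. Nppb had 165 and 647 CPM in low and high cells, Slc6a6 14.2 and 47.3 CPM, Bmp10 1.18 and 10.6 CPM and Hey2 102 and 73.0 CPM. The reverse direction was seen for Kcnd2, at 6.19 and 6.75 CPM, and for Id2, at 78.5 and 60.1 CPM. With 1 library there is no test of these values.

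**Figure D4:**
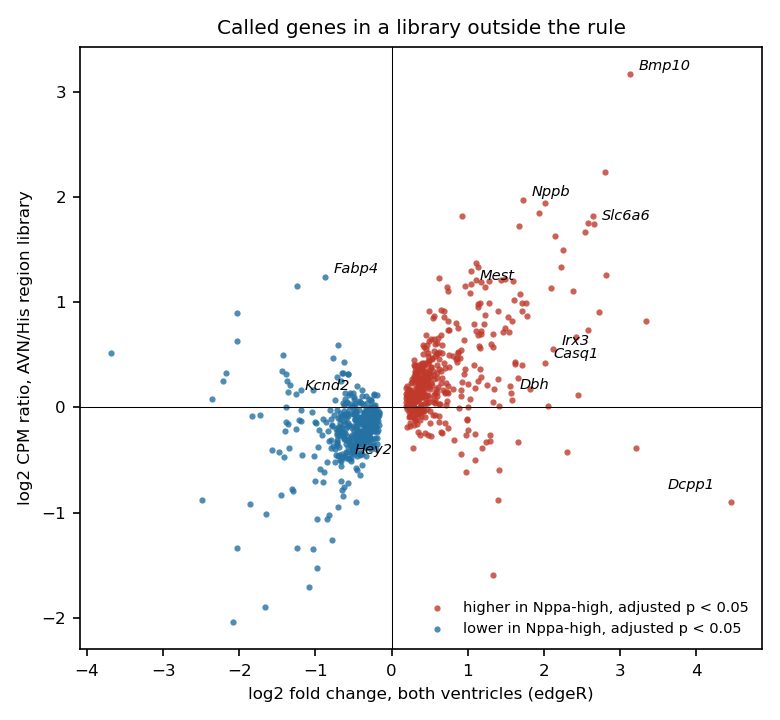
Log2 fold change in both ventricles from edgeR (x axis) against the log2 CPM ratio in the AVN/His region library (y axis), for the genes that passed edgeR's test in the ventricles. Points at the upper right and lower left have the same direction, which holds for 344 of 420 higher and 323 of 385 lower genes. Of all tested genes, 45.5% were higher and 54.5% lower in the AVN/His library.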

How the data were processed

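The deposited files hold UMI counts per gene and barcode, which the authors made with Cell Ranger against mm10 from 10x Genomics 3' libraries; the version and the annotation release are not given in the sources used here. The counts are raw, with no normalization. Ventricular myocytes were gated as described above in the BB/PF libraries of both ventricles, with 27998 genes in the files. UMIs were summed per library and side, and the 4 sums held 24583437, 4216076, 17185288 and 3206146 UMIs (left low, left high, right low, right high) after Nppa was removed. The genes of the gate stayed in library sizes and out of the test.

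The sums were tested by edgeR's quasi-likelihood method (glmQLFit, glmQLFTest; edgeR 4.0.16, limma 3.58.1, R 4.3.3). The library was a block, factors were TMM, low genes were dropped by filterByExpr, and p-values were adjusted by Benjamini-Hochberg over the 11539 genes tested, with a threshold of 0.05. Both sides of a pair come from the same library, which is where the pairing comes from. The fit has 1 residual degree of freedom and rests on a prior of 41.2 degrees shared over genes. On simulated counts for this contrast (11449 genes) it found 81.25% of 96 genes changed 2-fold and 95.88% of 97 genes changed 4-fold. Of its calls there, 6.04% were false. The counts were drawn from low-side levels with 1 dispersion (0.00136) for all genes. Real genes differ in dispersion, and most changes called here were under 2-fold, so these shares do not carry over to the calls above.

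The members and the lists were chosen with earlier results of these data known. Named genes were every measured member of the trabecular, compact and natriuretic lists, the 12 genes of lowest p in each direction that moved alike in both libraries, and of every other list the 2 highest and 2 lowest among members with at least 20 CPM. Any further gene was picked with its values in view. A few members of these lists are not reported here by name. No doublet caller was run; cells with at least 3 markers of another type or over 1% hemoglobin were left out in an alternative. Macrophage-like barcodes had at least 3 of the macrophage markers and a muscle score under 1.5. Other alternatives were DESeq2 1.42.0, RLE factors, no filter, no block, other limits for both sides, thinning to 4000 UMIs, equal cell numbers, other gates, cycling cells left out and the AVN/His library added. Putting that library in place of either ventricle was chosen after the data were seen. Intervals are exact and cover counting error only. Gene coordinates are those of GENCODE M21 on GRCm38, matched by Ensembl identifier for 27645 of 27998 genes, and promoter sequences come from RefSeq (GRCm38.p6). Figures were drawn with matplotlib 3.10.9, and sums made in Python 3.11.15 with pandas 2.3.3, scipy 1.17.1 and numpy 2.4.6.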

Additional observations from a re-analysis of the deposited data

Results flagged for a closer look

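The contrast went in opposite directions in the ventricles for 5 named genes, with the counting interval of each ratio clear of 0; the difference between the ventricles was not tested. All are hemoglobin or mitochondrial transcripts. The log2 ratio of Nppa-high over Nppa-low was -0.52 (left) and 0.22 (right) for Hbb-bs, -0.38 and 0.28 for Hbb-bt, and -0.51 and 0.22 for Hba-a1. For mt-Co1 it was 0.0962 and -0.0259, and for mt-Nd5 0.112 and -0.0590. None of the 5 passed edgeR's quasi-likelihood test over both libraries.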

How the results depend on the processing

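The 420 higher and 385 lower genes became 103 and 37 with DESeq2, 135 and 88 when sums were taken after thinning, and between 140 and 169 higher and 94 and 109 lower when 1 library was left out with the AVN/His library in its place. Without the replicate block 12 and 1 genes passed; both sides of a pair are cells of the same library, so this fit ignores the pairing. The lower count alone moved by over 1.5 times with the top 25% of cells by Nppa (250), equal numbers of cells (153), cycling cells left out (155) and the AVN/His library added (220). Thinning and equal numbers of cells leave smaller sums; for the others the cause was not tested. Of the 103 and 37 genes of DESeq2, all were among the 420 and 385; Corin, Etv1, Irx2, Tgfb2, Sema5a, Slitrk5 and Dlk1 did not pass with it, though they did with either ventricle left out. Without the block, no called named gene changed direction and 49 of the named genes lost their call. In every tested alternative but that one, 21 of 34 higher named genes and 5 of 24 lower ones kept call and direction; the 5 were Hey2, Ppp1r1b, Cenpa, Birc5 and H2afv. Col1a2 reversed, at 0.43 with equal numbers of cells and 0.21 with cells of other types left out, as did Hbb-bt, at 0.28 with the top 5% and 0.21 with the top 25% of cells. RLE factors gave 560 higher and 390 lower genes. Depth limits genes with few UMIs in the high side, such as Kcnd2, Slit2 and Gja5 on the right.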

Other observations

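Fast skeletal muscle genes were looked up after Casq1, Acta1 and Myl1 had been seen near the top. Of 12 such genes 8 were tested, and 6 were higher in Nppa-high cells and none lower with edgeR's quasi-likelihood test. The 6 include those 3 genes, which prompted the list, so the count is no independent result. Of all 11539 tested genes, 3.64% were higher. Among the 6 is Ckmt2, a creatine kinase that is not particular to fast muscle. Beside the 3 named ones and Ckmt2, these were the regulatory light chain Mylpf, with 5.17 and 18.5 CPM in left low and high cells and 4.89 and 12.2 CPM in right ones (log2 fold change 1.62, SE 0.19), and the myosin-binding protein Mybpc2 (1.49, adjusted p = 0.00565 with edgeR, and 1.13 and not passing with the AVN/His library in place of the left). Mybpc2 did not pass with DESeq2 either. In the AVN/His library the log2 ratio was 0.43 for Casq1, 0.87 for Acta1 and 0.67 for Myl1. It was 0.41 for Mylpf, 1.22 for Mybpc2 and 0.19 for Ckmt2. The fast troponins Tnni2 (-0.29) and Tnnt3 (-0.37) did not pass. Of 6 smooth muscle genes, 4 were higher: Acta2, Myl9, Tpm2 and the calponin Cnn1, with 26.6 and 56.9 CPM on the left and 35.8 and 84.2 CPM on the right (1.15, SE 0.09). Tagln (0.58) and Mylk (-0.34) did not pass.

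Imprinted genes, also chosen after values were seen, divided: of 10 tested, Mest, Cdkn1c (0.28) and Igf2r were higher, and Plagl1, Dlk1 and Grb10 (-0.22) were lower. With the AVN/His library in place of either ventricle, Cdkn1c (-0.03 without the left and -0.03 without the right library), Grb10 (-0.11 and -0.11) and Plagl1 (-0.28 and -0.28) did not pass. The log2 ratio of Cdkn1c was 0.27 on the left, 0.34 on the right and -0.38 in the AVN/His library. Plagl1, a zinc finger factor, had 175 and 128 CPM on the left and 194 and 136 CPM on the right (-0.50, SE 0.07, adjusted p = 5.35e-07 with edgeR). Dlk1 had 5.04 and 0.949 CPM on the left and 9.83 and 4.05 CPM on the right (-1.64, SE 0.31). H19 (-0.10) and Igf2 (0.05) did not pass.

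Dbh, the enzyme that makes noradrenaline from dopamine, had 3.21 and 9.96 CPM on the left and 3.14 and 9.05 CPM on the right (1.57, SE 0.24, adjusted p = 5.53e-06 with edgeR), but did not pass without the left (0.94) or the right library (1.08). Its log2 ratio in the AVN/His library itself was 0.14. Slitrk5, a synaptic adhesion protein gene, had 14.5 and 4.51 CPM on the left and 14.1 and 6.55 CPM on the right (-1.42, SE 0.21, adjusted p = 3.1e-06 with edgeR). Dcpp1 had the largest log2 fold change among the higher genes (4.46), with 0.203 and 8.54 CPM on the left and 0.291 and 1.56 CPM on the right, and 4.19 and 2.25 CPM in the AVN/His library; it did not pass without the left (-0.10) or the right library (1.79).

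Within 100 kb of Nppa on chromosome 4, Nppb had the largest log2 fold change among protein-coding genes (1.73). The mitofusin Mfn2 differed by 0.31 on the log2 scale (SE 0.07, adjusted p = 8.69e-04 with edgeR) and the collagen-modifying enzyme Plod1 of 0.41 (adjusted p = 0.0460), while Clcn6 (-0.01) and Agtrap (0.09) did not pass. Neither Mfn2 (0.24 and 0.29) nor Plod1 (0.20 and 0.20) passed without the left or without the right library.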
